A study of Mus musculus with 22 samples.

Results

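The genes described here build the chemical synapse: 24 presynaptic genes of the synaptic vesicle, the release machinery and the active zone, and 14 genes grouped as postsynaptic. They were taken from a fixed list of names, each gene being read by 1 probe set that carries no other symbol and has the gene's highest mean signal. Of the 38 listed genes, 37 were measured (24 presynaptic, 13 postsynaptic) among 18193 genes on the array; Shank2 was not analysed here. Psd2 encodes a pleckstrin and Sec7 domain protein that activates Arf GTPases, and its symbol does not stand for a protein of the postsynaptic density.

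The study asked how the spinal cord responds when its blood supply is interrupted at the aorta. All mice were wild-type C57Bl/6 animals of 10 to 12 weeks. They had either sham surgery or a clamp on the aorta for 7.5 minutes, and cord was taken 24 h or 48 h after the clamp, above the T6 level (rostral) and below it (caudal). Total RNA was hybridised to Affymetrix Mouse430_2 arrays, and each value is the authors' RMA signal on a log2 scale. The groups were sham caudal (3 arrays), sham rostral (4), 24 h caudal (3), 24 h rostral (3), 48 h caudal (4) and 48 h rostral (4). A rostral array numbered 276 was left out of every group because its labels give both times.

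At a synapse, vesicles filled with transmitter are tethered at the active zone by large scaffold proteins, primed by Munc13 proteins and complexins, and fused by SNARE proteins when synaptotagmins bind calcium. Across the cleft, PSD-95-type scaffolds, SAPAPs, Shanks and Homers hold glutamate receptors and kinases in place, while gephyrin does this at glycine and GABA synapses. In the cord these proteins serve motor, sensory and local inhibitory circuits, and their mRNAs are made chiefly by neurons.

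Some arrays stood apart. Caudal 48 h array 271 had a narrower spread of signals than the others (SD over probe sets 2.05 against 2.21 to 2.27) and a lower median correlation with the rest (0.912 against 0.974 to 0.995). The 5′ minus 3′ Gapdh signal, a sign of RNA integrity and labelling, was lowest on array 274 of the caudal 48 h group (-1.05) and array 280 of the caudal sham group (-0.681), and lay between -0.208 and 0.0385 on the other 19. On the 24 h arrays numbered 283, Hoxc10, a gene of the caudal cord, went against the region labels: the array labelled caudal read 5.67 and its rostral counterpart 10.14, where the other caudal arrays ranged from 9.19 to 10.48 and the other rostral arrays from 5.32 to 6.22. The numbers in the titles follow treatment and time, so an effect of processing order cannot be told apart from them. No label states that arrays within a group came from different animals, and the p-values thus describe the spread among these samples; 3 to 4 arrays a group also limit the precision.

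Against sham, synaptic genes passed the test in caudal cord at 48 h and in no other group of the reported fit. With limma (Benjamini-Hochberg adjusted p under 0.05 over all genes), 7 of 37 genes fell and 0 rose relative to sham; among all genes 7.02% fell and 5.52% rose. The 7 were the active zone genes Bsn, Rims1 and Rims2, the fast calcium sensor Syt2, the vesicle SNARE Vamp1, the postsynaptic scaffold gene Dlgap2 and the Arf regulator Psd2. The differences of 33 of 37 genes were below 0, and 23 had an unadjusted p under 0.05, all of them lower. Among all 18193 genes 9033 were below 0 and 6241 had an unadjusted p under 0.05, 3871 of them lower. The median difference of the 37 genes was -0.49 on the log2 scale, where the median of all genes was 0.00 and that of the 9096 genes in the brighter part of the array, which held 34 of the 37, was -0.19. Of these brighter genes 10% were called lower. Arrays of the 48 h and sham groups did not overlap for 15 of 37 genes, all lower at 48 h; among all genes this was so for 11.1% in that direction. In bulk tissue, fewer neurons and less mRNA per neuron cannot be told apart.

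**Figure D1:**
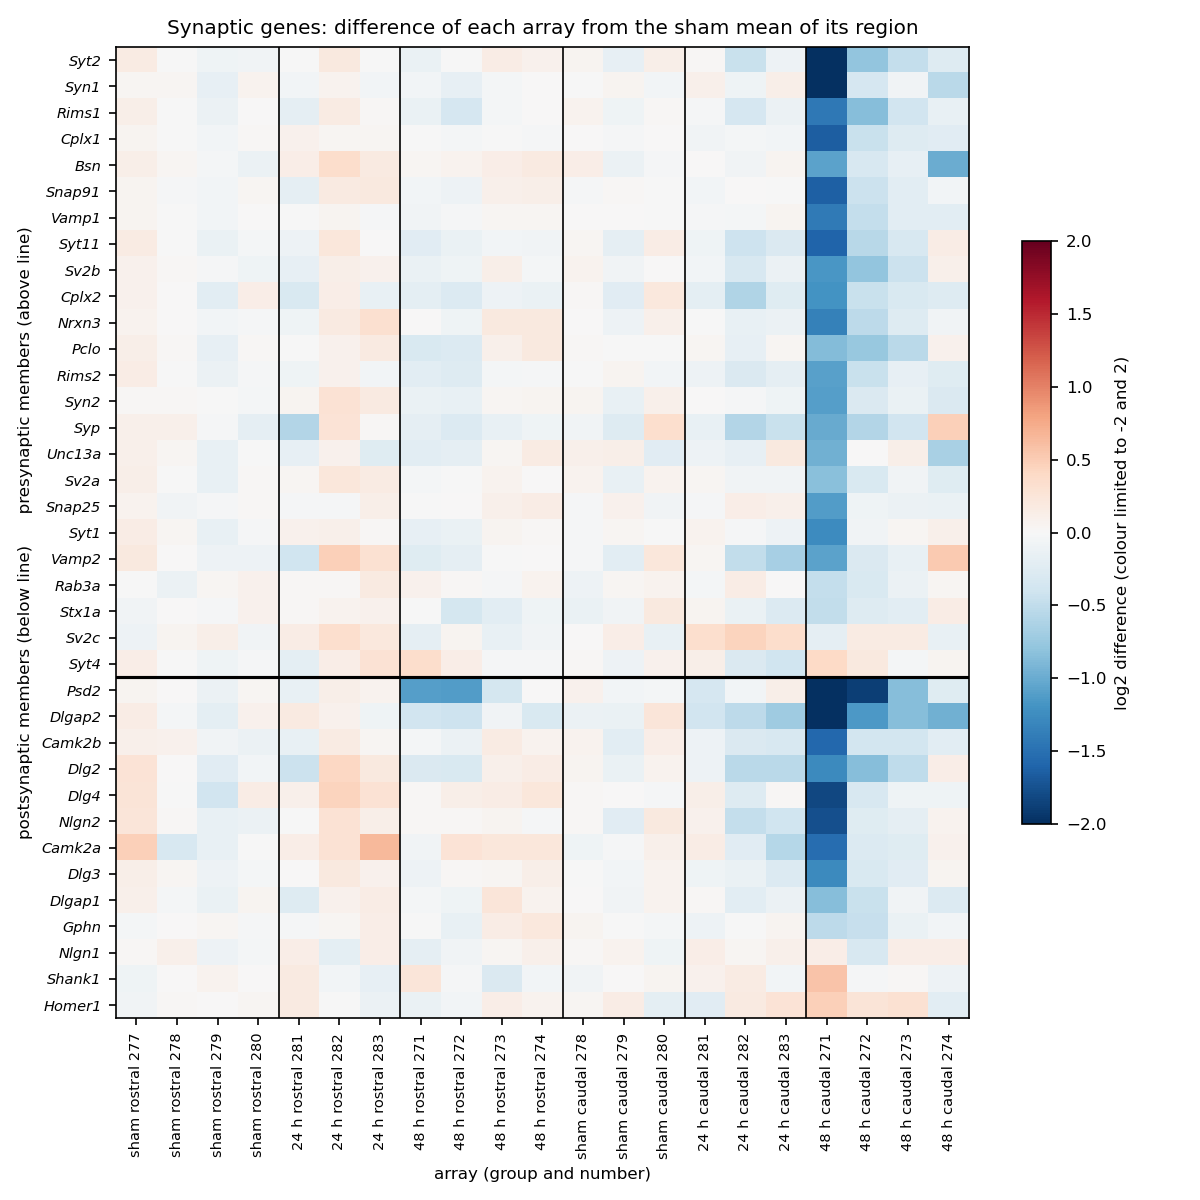
Each row is a synaptic gene and each column an array, and the colour gives the log2 signal minus the sham mean of the same region. Blue marks values below sham and red values above it, and the caudal 48 h arrays are the bluest columns, with array 271 (median difference -1.17) well below arrays 272 (-0.34), 273 (-0.18) and 274 (-0.10).

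The 4 caudal arrays at 48 h did not share the decrease equally. The median difference of the 37 genes from the sham caudal mean was -1.17 on array 271, -0.34 on 272, -0.18 on 273 and -0.10 on 274. The sham caudal arrays themselves ranged from -0.06 to 0.05. Of the 37 genes, 33 lay below every sham caudal array on 271, 32 on 272, 25 on 273 and 22 on 274. Array 271 had the largest median difference and so set much of the size. The count of genes below every sham array was 9, 23 and 19 on 24 h caudal arrays 281 to 283, a group with no call. The share of all genes below every sham array was not computed for single arrays. These counts are therefore not a result about the synaptic genes in particular. The median of the brighter genes was -0.47 on array 271, -0.15 on 272, -0.11 on 273 and -0.03 on 274. On array 271 the gene differences ran from -3.07 for Psd2 to 0.57 for Shank1, a postsynaptic scaffold gene.

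Without array 271, limma called 9 of 37 genes, all lower, against 8.88% lower among all genes, and the median difference was -0.23 (all genes -0.04). The list then held the same 7 genes together with Syn1, which clusters vesicles, and Cplx1, which clamps and promotes fusion. Dlgap2 stood at -0.99 ± 0.12 (SE; limma adjusted p = 8.13e-05) and Cplx1 at -0.31 ± 0.06 (limma adjusted p = 0.0029). Without arrays 271, 274 and 280 together, a choice made after seeing the data, 11 genes were called, all lower (16.7% of all genes were), and the median was again -0.23. Bsn and Syn1 were not among these, which were Syt2, Snap91, Vamp1, Sv2b, Cplx1, Rims1, Rims2, Pclo, Dlgap2, Gphn and Psd2.

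The calls depended on how the spread was estimated. When the sham and 48 h caudal arrays were fitted alone, 0 of 37 genes passed in limma (0.781% of all genes did), against 7 when all 6 groups shared the spread. With array weights 17 of 37 passed, and so did 34.3% of all genes. Over 33 alternative fits, Dlgap2 passed in 31 of the 32 that kept it, Bsn, Rims1 and Psd2 in 28 each, Syt2 and Rims2 in 12 each and Vamp1 in 11. The direction of these 7 genes was lower in every one of those fits.

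Of the active zone genes, whose products hold vesicles at the release site, Bsn, Rims1 and Rims2 fell and Pclo and Unc13a did not pass. Bsn encodes Bassoon, a giant scaffold protein of the active zone. Its sham caudal signals were 9.68, 9.43 and 9.52, and its 48 h caudal signals were 8.47, 9.22, 9.37 and 8.54 on arrays 271 to 274. All 4 arrays were below sham, and the lowest were 271 and 274, the latter being the array with the low 5′ Gapdh signal. The difference was -0.64 ± 0.16 (SE; limma adjusted p = 0.0181). It was -0.26 without arrays 271, 274 and 280 (limma adjusted p = 0.084) and -0.08 when the mean of the gene's 3 probe sets was taken, since the other probe sets of Bsn, at lower signals, stood at 0.21 and 0.18.

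Rims1 and Rims2 encode RIM proteins, which bind Rab3 on vesicles and recruit calcium channels to release sites. Rims1 signals were 9.84, 9.69 and 9.79 in sham caudal cord and 8.35, 8.93, 9.39 and 9.63 at 48 h. The groups did not overlap, and array 274 came closest to sham. The difference was -0.70 ± 0.20 (SE; limma adjusted p = 0.0296), and the gene's other probe set stood at -0.87. Rims2 signals were 9.45, 9.51 and 9.39 in sham and 8.36, 8.99, 9.28 and 9.20 at 48 h. Again every 48 h array was below every sham array, with a difference of -0.49 ± 0.15 (SE; limma adjusted p = 0.0441). Pclo, which encodes the Bassoon relative Piccolo, stood at -0.52 (limma adjusted p = 0.0533), with array 274 (9.37) above the sham range of 9.27 to 9.31. Unc13a, the priming factor Munc13-1, stood at -0.37 and did not pass.

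The promoters of Bsn and Rims1, active zone genes that fell, are shown with 1 of the 2 promoters of Homer1. Homer1 is a postsynaptic gene whose probe sets did not move together, and its promoter with the most matches to the marked motif was taken. The sequences are the 250 bases before the start from RefSeq on GRCm38.p6, written 5′ to 3′ along the gene's strand. Capitals mark the palindromic NRF1 site in Bsn (chr9:108190384-108190633, minus strand), the GC box GGGCGG in Rims1 (chr1:22806159-22806408, minus strand) and the cAMP response element core TGACG in Homer1 (chr13:93303507-93303756, plus strand).
Bsn: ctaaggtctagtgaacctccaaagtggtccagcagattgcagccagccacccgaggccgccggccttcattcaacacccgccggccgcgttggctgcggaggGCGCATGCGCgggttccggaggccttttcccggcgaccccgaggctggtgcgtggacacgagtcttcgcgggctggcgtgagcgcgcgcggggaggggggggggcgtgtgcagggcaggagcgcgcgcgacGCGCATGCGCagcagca
Rims1: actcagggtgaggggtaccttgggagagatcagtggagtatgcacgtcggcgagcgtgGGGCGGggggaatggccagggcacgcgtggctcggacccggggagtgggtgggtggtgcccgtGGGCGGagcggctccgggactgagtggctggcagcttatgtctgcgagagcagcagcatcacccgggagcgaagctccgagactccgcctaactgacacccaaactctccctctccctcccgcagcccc
Homer1: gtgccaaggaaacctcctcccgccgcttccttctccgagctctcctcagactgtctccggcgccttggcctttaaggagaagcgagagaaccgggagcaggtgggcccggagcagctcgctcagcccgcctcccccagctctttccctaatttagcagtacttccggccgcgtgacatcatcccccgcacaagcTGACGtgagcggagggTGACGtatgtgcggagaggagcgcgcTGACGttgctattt
Both strands were searched in the 46 promoters that the table holds for 29 of the genes. The NRF1 site was in 1 of the 46 (0.782% of all 32851 promoters), the GC box in 21 of 46 (45.7% against 32.7% of all) and TGACG in 8 of 46 (17.4% against 17.8%). The full palindrome TGACGTCA, which contains TGACG, was in 1 of 46, that of Syn1, and in 1.55% of all promoters. These matches describe the letters in these windows only.

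Among the calcium sensors and fusion proteins, Syt2 and Vamp1 fell. Syt2, synaptotagmin 2, is the fast calcium sensor of many hindbrain and spinal synapses. It read 11.38, 11.17 and 11.45 in sham caudal cord and 9.00, 10.54, 10.86 and 11.07 at 48 h. The 48 h arrays were all below sham, array 271 by far the most. The difference was -0.97 ± 0.31 (SE; limma adjusted p = 0.0455), and it was -0.51 without array 271 (limma adjusted p = 0.0146). Vamp1, the synaptobrevin form abundant in the cord, read 13.31 on each of the 3 sham caudal arrays and 11.89, 12.84, 13.09 and 13.10 at 48 h. The difference was -0.58 ± 0.19 (SE; limma adjusted p = 0.0482), and again the groups did not overlap.

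The related fusion genes gave lower values that did not pass. Syt1, the forebrain-type sensor, stood at -0.30, Vamp2 at -0.25, Snap25 at -0.36 and Stx1a at -0.20. The weight of array 271 is seen in Snap25, a SNARE of the plasma membrane, which read 13.45, 13.55 and 13.40 in sham and 12.36, 13.38, 13.35 and 13.33 at 48 h. The other 48 h arrays lay just under the sham range. The complexins, which bind the assembled SNARE complex, stood at -0.64 for Cplx1 (limma adjusted p = 0.0565) and -0.55 for Cplx2 (limma adjusted p = 0.0538). Syt4, a synaptotagmin of dense-core vesicles, stood at 0.15 and Syt11 at -0.58.

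None of the synapsin, synaptophysin, Sv2, Snap91 and Rab3a genes passed with array 271 included. Syn1, synapsin I, read 11.12, 11.18 and 11.08 in sham caudal cord and 8.36, 10.79, 11.06 and 10.59 at 48 h. Its difference was -0.93 ± 0.39 (SE; limma adjusted p = 0.106), and without array 271 it was -0.31 ± 0.10 (SE; limma adjusted p = 0.0386). Array 271 thus enlarged both the difference and its error. Syn2 stood at -0.45, the vesicle protein gene Syp (synaptophysin) at -0.38, and Snap91, the clathrin adaptor AP180, at -0.58. Sv2a, Sv2b and Sv2c encode vesicle glycoproteins, and stood at -0.37, -0.57 (limma adjusted p = 0.0522) and 0.00. Rab3a, the vesicle GTPase bound by RIMs, stood at -0.21, and Nrxn3, a neurexin that binds neuroligins across the cleft, at -0.55.

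**Figure D2:**
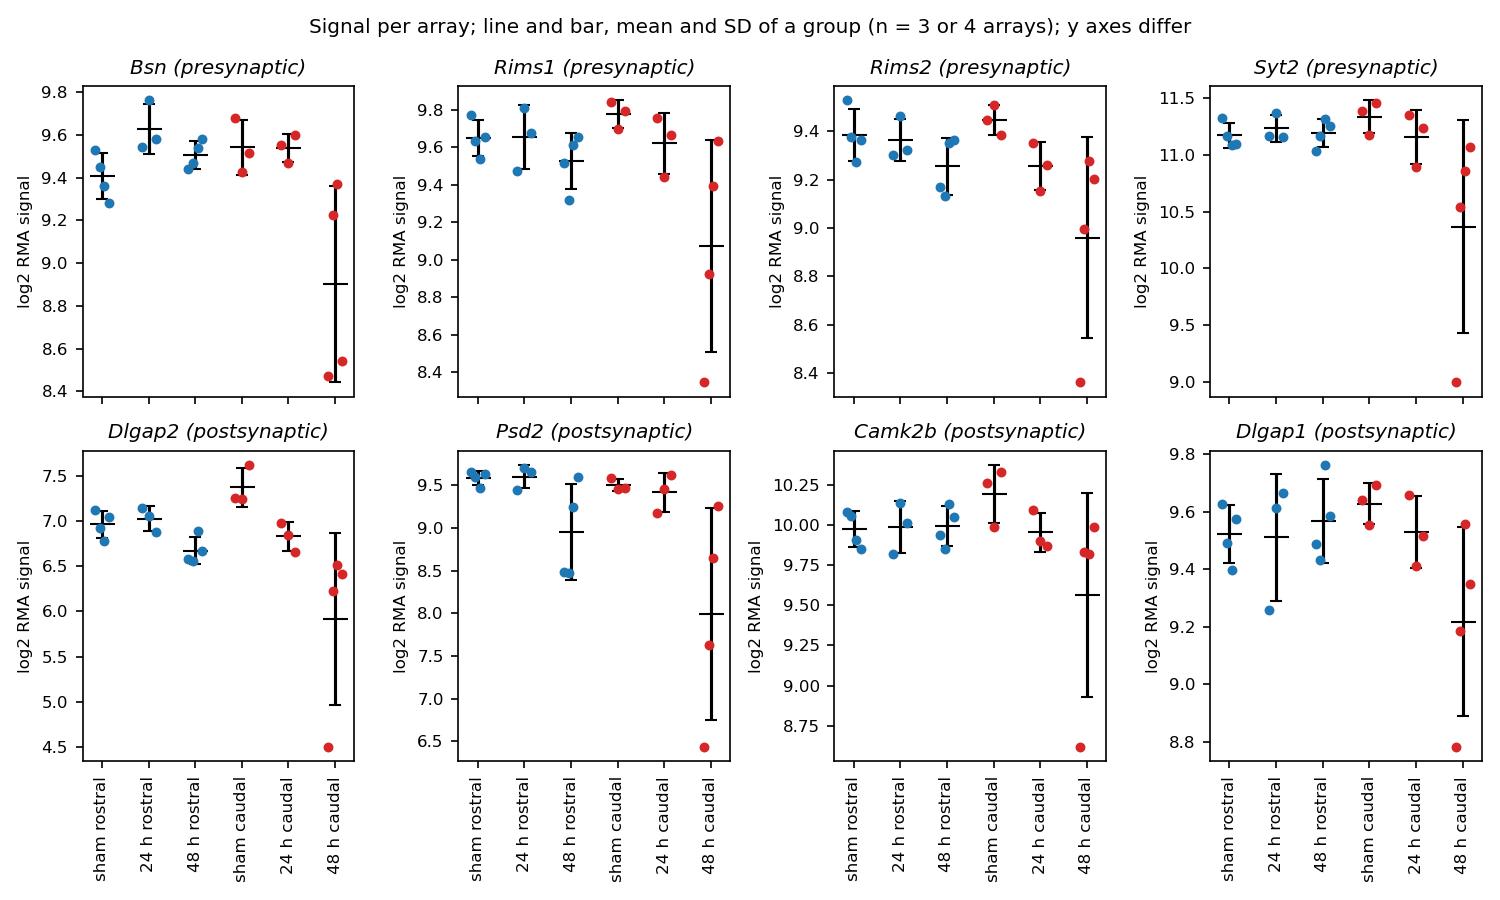
Log2 signals of the 4 presynaptic and 4 postsynaptic genes with the smallest p at 48 h caudal are plotted for every array by group (blue rostral, red caudal), with the mean and SD of each group. For Bsn, Rims1, Rims2, Syt2, Dlgap2, Psd2 and Camk2b every caudal 48 h array lies below every sham caudal array, and for Dlgap1 array 273 (9.56) lies within the sham range of 9.55 to 9.69.

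On the postsynaptic side, Dlgap2 gave the smallest p of all 37 genes. It encodes SAPAP2, which links PSD-95 to Shank proteins. Its signals were 7.25, 7.24 and 7.62 in sham caudal cord and 4.50, 6.22, 6.52 and 6.41 at 48 h. All 48 h arrays were below all sham arrays, with a wide gap between the groups. The difference was -1.46 ± 0.31 (SE; limma adjusted p = 0.00589), from a single probe set. Dlgap2 was not in the brighter part of the array. Its 48 h caudal signals lay under the median signal of the arrays, which was 6.79 to 6.88. The other SAPAP gene, Dlgap1, read 9.64, 9.55 and 9.69 in sham and 8.78, 9.19, 9.56 and 9.35 at 48 h, a difference of -0.41 that did not pass (limma adjusted p = 0.0653).

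Psd2 had the largest difference, -1.51 ± 0.43 (SE; limma adjusted p = 0.0281). Its sham caudal signals were 9.58, 9.45 and 9.47, and at 48 h it read 6.43, 7.62, 8.65 and 9.26 on arrays 271 to 274. The 48 h arrays were spread over a wide range and all lay below sham. Without array 271 the difference was -0.99 ± 0.31 (SE; limma adjusted p = 0.036).

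The membrane-associated guanylate kinase scaffolds stood at -0.63 for Dlg2 (PSD-93), -0.44 for Dlg3 (SAP102) and -0.58 for Dlg4 (PSD-95), and none passed. Camk2b, the beta subunit of the calcium/calmodulin-dependent kinase II, read 10.26, 9.99 and 10.33 in sham and 8.62, 9.83, 9.82 and 9.98 at 48 h. Its groups were separated by a narrow margin, and the difference was -0.63 (limma adjusted p = 0.0634). Camk2a, the alpha subunit, stood at -0.48 and Gphn, gephyrin of the inhibitory synapse, at -0.30. Among the adhesion molecules, the inhibitory-synapse neuroligin gene Nlgn2 stood at -0.53 and Nlgn1, of excitatory synapses, at 0.02. Shank1 stood at 0.12 and Homer1 at 0.21.

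Homer1 was the gene whose probe sets differed most. The probe set with the highest signal, 1437363_at, read 9.01, 9.12 and 8.78 in sham caudal cord and 9.45, 9.23, 9.27 and 8.77 at 48 h, so the groups overlapped. Another, 1436387_at, read 5.78, 5.61 and 6.04 in sham and 8.28, 7.82, 7.36 and 6.73 at 48 h. All 4 arrays of the latter were above sham, and array 274 was nearest to it. With every probe set as a feature, this one rose by 1.74 ± 0.25 (SE; limma adjusted p = 0.000387), where 3.89% of the 45037 probe sets rose and 4.68% fell. The remaining 4 probe sets of Homer1 stood between -0.11 and 0.48 and did not pass. Homer1 is known to give a long scaffold form and short forms induced by activity; which form each probe set reads was not examined.

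Over the 63 other probe sets of the 37 genes, 49 had the same sign as the probe set used at 48 h caudal. The number was 45 at 48 h rostral, 30 at 24 h caudal and 25 at 24 h rostral. Besides the Homer1 probe set, 4 passed at 48 h caudal, all lower: 1 each of Pclo (-1.02), Sv2b (-0.62), Syn2 (-0.46) and Syt1 (-0.43).

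**Figure D3:**
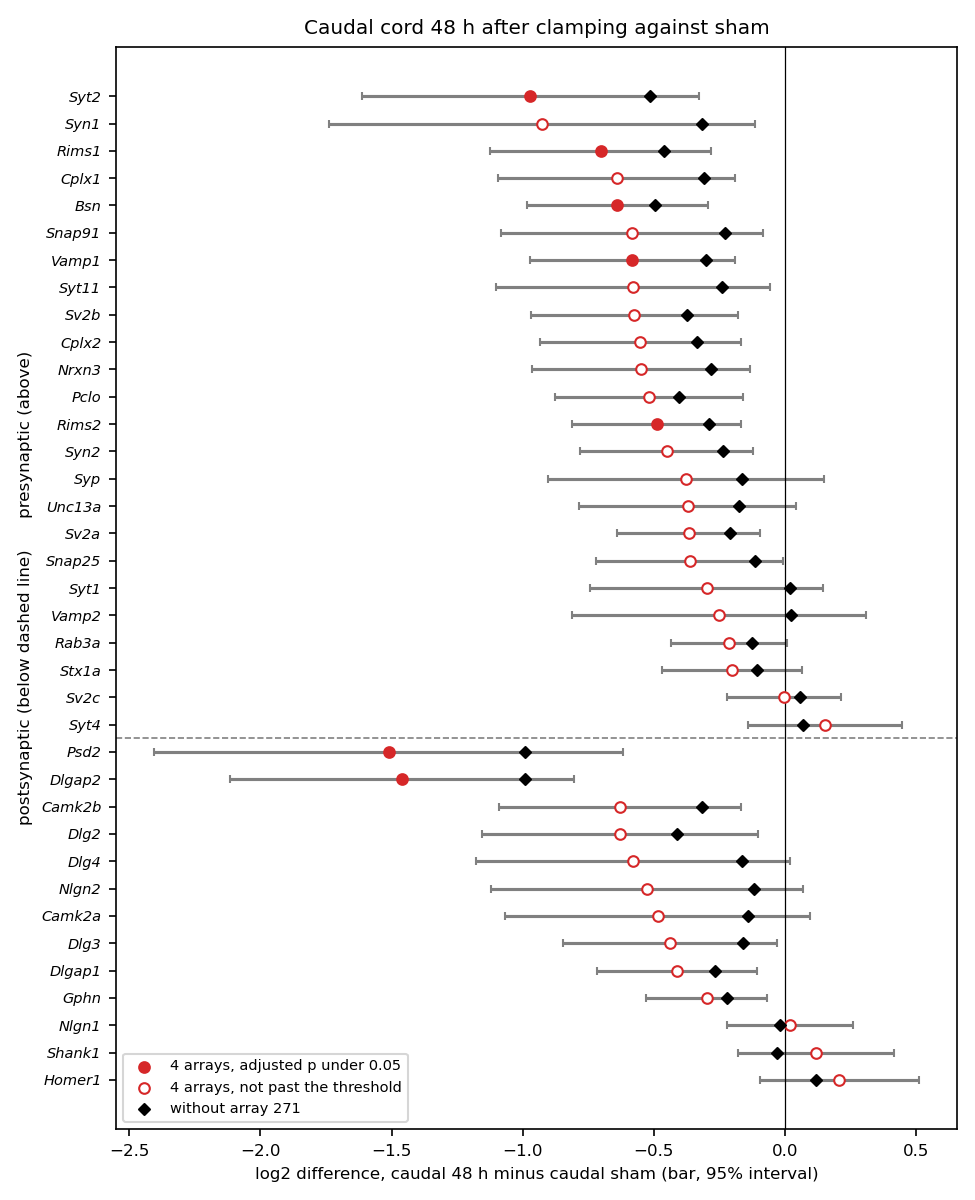
The log2 difference of each gene between caudal 48 h and sham is drawn with its 95% confidence interval from limma, beside the difference without array 271 (diamonds); filled circles passed the test. Most points lie left of 0 (33 of 37), and the median of the points without array 271 is -0.23 against -0.49.

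The medians of presynaptic and postsynaptic genes lay close together; their difference is given as a description, with no test. At 48 h caudal, 5 of 24 presynaptic and 2 of 13 postsynaptic genes (Dlgap2 and Psd2) fell, with medians of -0.50 and -0.48. Among all genes 7.02% fell, and among the 9096 brighter genes 10% did. The presynaptic median minus the postsynaptic median was -0.02, -0.04 without Psd2 and -0.07 without array 271. By array it ranged from -0.06 to 0.18, the highest being array 271, where the sham caudal arrays ranged from -0.05 to -0.01. At 48 h rostral this difference of medians was -0.06, at 24 h caudal 0.05 and at 24 h rostral 0.01. The middle ranges of the groups overlapped: the interquartile range at 48 h caudal was -0.58 to -0.35 for presynaptic and -0.63 to -0.30 for postsynaptic genes.

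**Figure D4:**
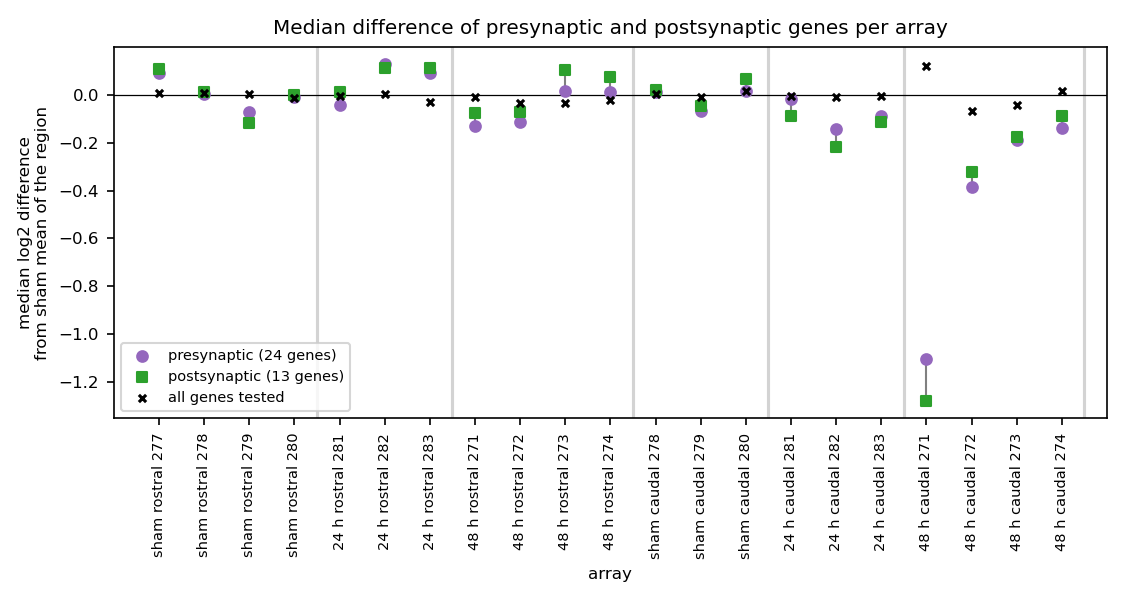
For every array, the median difference from the sham mean of the same region is plotted for the 24 presynaptic (circles) and the 13 postsynaptic genes (squares), with all genes as crosses. Circle and square lie close together on each array, also on caudal 48 h array 271 (-1.10 and -1.28).

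Rostral cord at 48 h gave no call. In limma, 0 of 37 genes passed (0.61% of all genes did), 0 had an unadjusted p under 0.05, and array weights called 1, Psd2 (10.2% of all genes passed). The median difference was -0.03. Psd2 had the smallest p, at -0.64 ± 0.40 (SE; limma adjusted p = 0.926, and 0.0124 with array weights). It read 9.65, 9.60, 9.47 and 9.63 in sham rostral cord and 8.49, 8.48, 9.24 and 9.59 at 48 h, so that arrays 271 and 272 were about 1 unit below sham while 274 was within its range. The next smallest p-values belonged to Stx1a (-0.16), Cplx2 (-0.18), Dlgap2 (-0.29) and Rims2 (-0.13), and no gene's groups were separate. All groups share 1 spread in this fit, so caudal 48 h array 271 enters the rostral test too. Without it 0 of 37 genes passed, and the smallest limma adjusted p was 0.193. In that fit 2 of 37 had an unadjusted p under 0.05, as did 2634 of 18193 genes, and 240 genes were called higher and 180 lower. Heart muscle genes were higher on the rostral 48 h arrays, as given below, and their part was not tested.

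The difference between regions in the 48 h effect was tested directly. In limma, 0 of 37 genes passed (0.561% of all genes did), 11 had an unadjusted p under 0.05, all with the lower value in caudal cord, and array weights called 4 (7.49% of all genes). The median of this difference of effects was -0.45. Bsn had the smallest p, with -0.74 ± 0.22 (SE; limma adjusted p = 0.188), followed by Dlgap2 with -1.17 ± 0.43 (SE; limma adjusted p = 0.313). Without array 271 the value for Dlgap2 was -0.70 ± 0.17 (SE; limma adjusted p = 0.0465), the single gene that then passed (1.17% of all genes did). In that fit 7 of 37 genes had an unadjusted p under 0.05, all lower in caudal cord, as did 1200 of 18193 genes in that direction. For the 11 genes counted with array 271 the share of all genes is not given here. For the other genes a difference between the regions is therefore not shown by this test.

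At 24 h no synaptic gene passed in either region. In caudal cord 0 of 37 passed in limma (0.0055% of all genes did), 1 had an unadjusted p under 0.05, and array weights called 2, Sv2c higher and Dlgap2 lower (1.61% of all genes passed). The median was -0.09, and 30 of 37 differences were below 0 (9300 of 18193 genes were). Of the 63 other probe sets of these genes, 30 had the same sign as the one used. The signs of the chosen probe sets were thus not shared by most of the others. The medians by array were -0.02 on 281, -0.15 on 282 and -0.10 on the array labelled caudal 283, and 9, 23 and 19 genes lay below every sham caudal array. Arrays 282 and 283 were in this respect like 48 h caudal array 274, with its median of -0.10 and 22 genes. For single arrays the share of all genes was not computed. Dlgap2 read 6.98, 6.84 and 6.66 on the 24 h caudal arrays, all below the sham arrays (7.24 to 7.62), with a difference of -0.54 ± 0.33 (SE; limma adjusted p = 1, and 0.0365 with array weights). Arrays of the groups did not overlap for 4 genes that were lower at 24 h, Cplx1, Rims2, Dlg3 and Dlgap2 (10.5% of all genes), and for 1 that was higher, Sv2c (8.65%). Other small p-values belonged to Cplx2 (-0.35), Dlg2 (-0.39, but 0.16 with its probe sets averaged) and Syp (-0.39).

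In rostral cord at 24 h, 0 of 37 genes and 0% of all genes passed in limma, 1 had an unadjusted p under 0.05, and array weights called 0 (0.0165% of all genes). The median was 0.06, and 25 of the 63 other probe sets had the same sign as the one used. Groups did not overlap for Syn2 (0.18), Sv2c (0.23) and Bsn (0.22), all higher at 24 h (3.47% of all genes), and Camk2a and Sv2a stood at 0.36 and 0.14. Leaving out both arrays numbered 283 gave 0 calls in either region at 24 h, with medians of -0.06 caudal and 0.04 rostral.

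Sv2c, a vesicle glycoprotein with a low signal on these arrays, had its highest signals at 24 h. It read 5.62, 5.74 and 5.47 in sham caudal cord, 5.95, 6.06 and 5.96 at 24 h and 5.43, 5.77, 5.77 and 5.46 at 48 h. In rostral cord the signals were 5.58, 5.74, 5.79 and 5.60 in sham, 5.83, 6.02 and 5.89 at 24 h and 5.50, 5.73, 5.53 and 5.60 at 48 h. In each region all 24 h arrays were above all sham and all 48 h arrays. The difference of 24 h from sham was 0.38 ± 0.11 (SE; limma adjusted p = 1, and 0.024 with array weights) in caudal cord and 0.23 ± 0.10 (SE; limma adjusted p = 1) in rostral cord; without the arrays numbered 283 they were 0.40 and 0.25.

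From 24 h to 48 h in caudal cord, 2 of 37 genes fell in limma (2.45% of all genes fell), Bsn by 0.64 ± 0.16 (SE; adjusted p = 0.0259) and Sv2c by 0.38 ± 0.10 (SE; adjusted p = 0.0342). The median was -0.33, and groups did not overlap for 7 genes, all lower at 48 h (6.94% of all genes): Syn2, Snap25, Vamp1, Sv2c, Cplx1, Bsn and Dlgap2. Neither call held without the arrays numbered 283 (limma adjusted p = 0.163 for Bsn and 0.151 for Sv2c). Without array 271, 6 genes passed, all lower (3.69% of all genes fell): Syn1, Vamp1, Sv2c, Cplx1, Bsn and Dlgap2. The comparisons of 48 h with sham and with 24 h share the same 48 h arrays. In rostral cord 0 of 37 passed in limma (0.363% of all genes did), 1 had an unadjusted p under 0.05 (Sv2c, -0.32) and array weights called 3 (6.18% of all genes). Without caudal 48 h array 271, 0 of 37 passed there and 5 had an unadjusted p under 0.05 (2050 of 18193 genes did).

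Between sham caudal and sham rostral cord, 0 of 37 synaptic genes passed in limma (0.335% of all genes did), 1 had an unadjusted p under 0.05, and array weights called 1 (6.9% of all genes). The median, caudal minus rostral, was 0.11. Syt4 had the smallest p, at 0.30 ± 0.14 (SE; limma adjusted p = 0.895), with 11.02, 10.90 and 11.08 in caudal and 10.83, 10.69, 10.61 and 10.68 in rostral cord. Groups were separate for 7 genes that were higher in caudal cord, Syt4, Snap91, Sv2b, Cplx1, Nrxn3, Dlg3 and Dlgap2 (12.1% of all genes), and for 1 that was lower, Nlgn1 (8.67%). Other markers did differ between the sham regions: 3 of 5 Schwann cell genes (median 1.65) and 3 of 7 sensory ganglion genes (median 0.76) were higher in caudal cord, and the pan-neuronal median was 0.10 with none of 12 past the test (0 at an unadjusted p under 0.05). The microglia and macrophage median was -0.35, and 10 of 12 genes had all caudal arrays below all rostral arrays, though none passed in limma and 2 had an unadjusted p under 0.05. Their part in the synaptic values was not tested.

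Among other genes of the synapse, taken from fixed lists, those that passed at 48 h caudal were all lower. In this comparison 7.02% of all genes fell and 5.52% rose, and 10% of the 9096 brighter genes fell. Of 36 further presynaptic genes 5 fell and 0 rose, with a median of -0.53: the liprin genes Ppfia4 (-0.53) and Ppfia3 (-0.70), Syn3 (-0.79), Sh3gl2 (-0.60), which encodes the endocytic protein endophilin, and the synaptotagmin gene Syt7 (-0.69). Of 25 further postsynaptic genes 4 fell and 0 rose, with a median of -0.35. They were Lrrtm1 (-0.63), a synaptic adhesion gene, Cacng2 (-0.52), which encodes the AMPA receptor partner stargazin, the Arf regulator Iqsec2 (-0.35) and the SAPAP gene Dlgap3 (-0.44). Of 22 ionotropic receptor genes 2 fell and 0 rose, Gabrb2 (-0.65) and Grik1 (-0.79), with a median of -0.48. This count is near the share over all genes. None of 9 genes for transmitter synthesis and vesicular transport passed in limma, and 3 had an unadjusted p under 0.05 (6241 of all 18193 genes did). The smallest p belonged to Slc32a1, the vesicular GABA and glycine transporter (-0.68, limma adjusted p = 0.0644). Without array 271, 1 of these 9 fell (8.88% of all genes did).

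**Figure D5:**
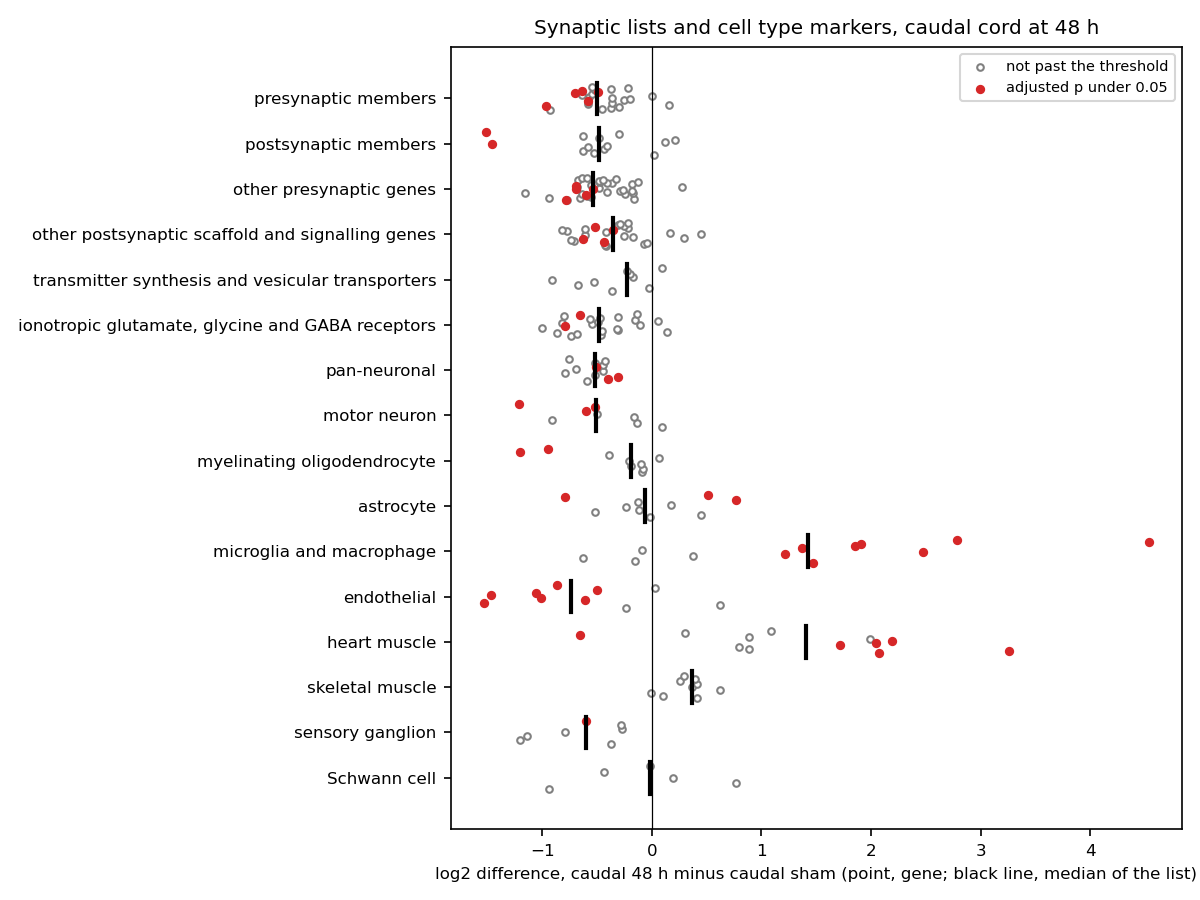
Each point is the log2 difference of a gene between caudal 48 h and sham, filled where it passed, and the black line is the median of its list. The medians of the synaptic lists lie between -0.53 and -0.23, the pan-neuronal list at -0.51, the microglia and macrophage list at 1.42 and the endothelial list at -0.74.

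Markers of whole cell types moved in the same comparison, in which 7.02% of all genes fell and 5.52% rose. Of 12 pan-neuronal genes 3 fell and 0 rose, with a median of -0.51, next to -0.49 for the 37 synaptic genes; Elavl4 stood at -0.51, Map2 at -0.40 and Nefl at -0.31. Their mean signal was 12.43 to 12.51 on sham caudal arrays and 11.19 to 12.31 at 48 h caudal, the lowest being array 271. In rostral cord it was 12.3 to 12.43 in sham and 12.27 to 12.41 at 48 h. Of 8 motor neuron genes 3 fell, Prph (-0.60), Chodl (-1.21) and Ret (-0.52). Without array 271 the pan-neuronal median was -0.27, next to -0.23 for the synaptic genes, and 5 of the 12 fell (8.88% of all genes did).

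Other cell types did not share that direction throughout. The counts below stand beside 5.52% of all genes that rose and 7.02% that fell. Of 12 microglia and macrophage genes 8 rose, with a median of 1.42 and a mean signal of 9.51 to 10.16 at 48 h caudal against 8.39 to 8.49 in sham. Of 10 endothelial genes 7 fell, with a median of -0.74. Of 10 astrocyte genes 2 rose, Gfap (0.77) and Sox9 (0.51), and 1 fell, Fgfr3 (-0.80). Of 9 myelin genes 2 fell, Aspa (-1.21) and Ugt8a (-0.95), with a median of -0.19. Of 12 heart muscle genes 5 rose and 1 fell, and at 48 h rostral 11 rose, with a median of 4.94 (0.61% of all genes passed there). Their mean signal was 6.59 to 8.11 at 48 h caudal and 9.21 to 10.65 at 48 h rostral, against 5.88 to 5.96 in sham. Of 9 skeletal muscle and 5 Schwann cell genes none passed in limma (0 and 1 at an unadjusted p under 0.05), and of 7 sensory ganglion genes 1 fell, Prph, which is also on the motor neuron list. The part that these cell types play in the synaptic differences was not tested.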

How the data were processed

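The deposited values are log2 signals that came from RMA run by the authors, according to the submitters' processing notes; its version is not given in the sources used here. They were used as deposited. Of 45101 probe sets, 34945 carried 1 gene symbol, 932 several and 9160 none listed, and 64 were controls; the probe set with the highest mean stood for its gene (18193 genes). The synaptic genes and the other lists were chosen with earlier results of these data known.

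Linear models with 6 group means over 21 arrays used limma 3.58.1 in R 4.3.3 (statmod 1.5.0), with 18.7 residual degrees of freedom including the prior. Tests were two-sided and adjusted by Benjamini-Hochberg over all genes of a contrast, and calls had an adjusted p under 0.05. The fit was tested on simulated data. Marker levels are means of log2 signals over a list.

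Every gene that passed against sham was named with its value; where fewer than 5 passed, the 5 with the smallest p were given as values. Signals by array were given for the 4 presynaptic and 4 postsynaptic genes with the smallest p at 48 h caudal, and for Vamp1, Syn1, Snap25, Pclo, Syt4, Sv2c, Psd2 in rostral cord and Homer1, chosen after their values were seen. Up to 4 genes of each other list were named, and Ppfia3 as well after its value was seen. Rostral and caudal arrays with the same number deviated from their group means with correlations of -0.45 to 0.534 over 10 numbers, 6 of them over 0.1. They were 0.245 to 0.534 for the 48 h numbers and 0.0866 to 0.282 for the sham numbers. The 24 h numbers, which include 283, gave -0.45 to -0.0287. The numbers were not taken as pairs, so the comparisons of regions leave out a possible pairing. Fits with the number as a block are given below. The alternatives were other array sets, array weights, quantile normalization, centring, trend and robust eBayes, the compared groups alone, averaged probe sets, brighter genes alone and the number as a block.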

Additional observations from a re-analysis of the deposited data

Results flagged for a closer look

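Within each group of 4 arrays, the gap of the highest or lowest array to its neighbour was set against the range of the group (Dixon's ratio, 95% level). Of 111 combinations of a synaptic gene and a group, 10 held an array that lay apart, all at the low end; chance gives about 1 in 20. Caudal 48 h array 271 accounted for 7 of them, with log2 signals of 10.06 for Syn2, 10.06 for Syt1, 12.36 for Snap25, 12.23 for Cplx1, 8.42 for Dlg4, 4.50 for Dlgap2 and 8.62 for Camk2b. The others were Nlgn1 on caudal 48 h array 272 (7.64), Camk2a on rostral 48 h array 271 (9.43) and Syn1 on sham rostral array 279 (11.00).

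Homer1 probe set 1436387_at, which was not the one chosen for the gene, rose by 1.74 on the log2 scale at 48 h caudal relative to sham, and all 4 arrays were above sham.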

How the results depend on the processing

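Of the synaptic genes that passed, none turned direction under an alternative. Dlg2 at 24 h caudal, which did not pass, turned from -0.39 to 0.16 with the mean of probe sets, and the presynaptic minus postsynaptic median at 24 h rostral turned from 0.012 to -0.023. For caudal 48 h vs sham, 7 synaptic genes passed in the reported fit; the number was 4 without both arrays numbered 283, 17 with array weights, 0 with the compared groups alone, 11 with array 276 counted as 24 h or as 48 h and 11 without arrays 271, 274 and 280. It ranged from 1 to 25 when each array was left out in turn. It was 1 without sham caudal 278 or 280, 2 without sham caudal 279 or 48 h caudal 272, 17 without 48 h caudal 273, 25 without 48 h caudal 274, 9 without 48 h caudal 271 and 4 without any other single array. With the array number as a random replicate block (correlation 0.138) it was 9, and the block changed no count elsewhere by more than from 2 to 3; as a fixed term it left the sham region comparison and the difference of effects at 0. At 48 h caudal against 24 h, the 2 calls became 6 without array 271, 0 without the arrays numbered 283, 7 with array weights, 0 with the compared groups alone, 7 with the mean of probe sets and 9 without arrays 271, 274 and 280, and ranged from 0 to 14 when arrays were left out in turn; leaving out any of the 24 h caudal arrays gave 0. With array weights, the comparisons with 0 calls gave 1 (48 h rostral), 2 (24 h caudal), 3 (48 h against 24 h rostral), 1 (sham regions) and 4 (difference of effects). Without arrays 271, 274 and 280, 48 h against 24 h rostral gave 1 and the difference of effects 2. The sham regions fitted alone gave 1. The difference of effects gave 1 without array 271 and ranged from 0 to 2 over single arrays left out. The other comparisons stayed at 0 when arrays were left out in turn. The presynaptic minus postsynaptic median moved to -0.031 at 48 h rostral with the mean of probe sets, and at 24 h caudal to 0.085 without Psd2 and 0.016 with the mean of probe sets. The cause of these shifts was not tested. Over all genes, calls at 48 h caudal were 2282 in the reported fit, 142 with the compared groups alone and 6245 with array weights. Lower calls were 1277 in the reported fit, 1615 without array 271 and 3040 without arrays 271, 274 and 280. For most other settings, and for single arrays left out other than 271, the number over all genes is not given here. Those synaptic counts therefore cannot be told apart from a change in calls over all genes. Arrays have no read depth; 3 to 4 arrays a group limit what can be detected.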
